A study of Mus musculus with 2 samples.

Results

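The Hedgehog pathway genes described here are Shh, Ptch1, Smo, Hhip, Gli1, Gli2, Gli3, Gas1 and Boc. They were found in the deposited table by gene symbol, whatever status an entry had, and 8 of the 9 listed genes matched an entry out of 29126 in all. The ninth, Gas1, was not analysed here. Messenger RNA was sequenced from mouse embryonic fibroblasts (MEFs), cultured cells of embryonic connective tissue, with a single library (1) for each genotype, Dnmt1+/+ and Dnmt1-/-. The cells called Dnmt1-/- carry, on both chromosomes, a hypomorphic allele of Dnmt1, the gene of the maintenance DNA methyltransferase, and those called Dnmt1+/+ carry no such allele. Both lines are also null for trp53, the gene of p53. Their strain is given as unknown, and the age, sex or body region of the embryos and the number of clones behind each line are not given in the sources used here. The values are RPKM, the reads on a transcript divided by its length in kilobases and by the number of mapped reads in units of 1000000, so that levels can be compared between genes as well as between libraries.

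Hedgehog ligands are secreted, lipid-modified proteins that pattern the limb, the neural tube, the gut and the skeleton. In their absence the receptor Ptch1 holds the membrane protein Smo inactive, and Gli3 is cut to a repressor of target genes. When a ligand binds Ptch1, with the co-receptors Boc, Cdon and Gas1, Smo moves into the primary cilium and Gli2 and Gli3 act as transcriptional activators. Ptch1, Gli1 and Hhip are themselves targets of the pathway, so that their RNA is commonly used as a readout of its activity. Fibroblasts are classical responders to ligands made by other cells.

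DNA methylation, which Dnmt1 maintains, lies at CG dinucleotides (CpG sites). A RefSeq promoter sequence (GRCm38.p6) was matched for 6 of the 9 listed genes, namely Ptch1, Smo, Hhip, Gli2, Gli3 and Gas1. In windows of 300 bases, from 250 before to 50 after the start of the gene, all 6 held 17 or more CpG sites, against a median of 7 over 32851 windows of the same length. The most were in Ptch1, with 47 and an observed to expected ratio of 1.09, and the fewest in Smo and Gas1, with 17 each. The 250 bases before the start are shown for Hhip and Gli2, the members with the lowest Dnmt1-/- values relative to Dnmt1+/+, and for Ptch1, whose values were alike, with CpG sites in capitals, each on the minus strand, 5′ to 3′.

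Hhip, chr8:80058009-80058258: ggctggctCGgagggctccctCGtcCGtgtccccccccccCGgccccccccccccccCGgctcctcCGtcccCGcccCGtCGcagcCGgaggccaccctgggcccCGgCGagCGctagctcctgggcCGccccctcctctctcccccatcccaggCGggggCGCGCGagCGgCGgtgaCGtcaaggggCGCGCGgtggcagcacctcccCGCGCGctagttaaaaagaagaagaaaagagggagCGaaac
Gli2, chr1:119053620-119053869: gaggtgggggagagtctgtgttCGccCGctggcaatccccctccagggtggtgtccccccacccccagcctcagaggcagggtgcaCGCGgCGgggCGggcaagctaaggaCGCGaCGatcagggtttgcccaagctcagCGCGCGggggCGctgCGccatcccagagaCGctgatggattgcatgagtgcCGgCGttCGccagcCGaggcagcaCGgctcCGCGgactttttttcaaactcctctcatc
Ptch1, chr13:63565736-63565985: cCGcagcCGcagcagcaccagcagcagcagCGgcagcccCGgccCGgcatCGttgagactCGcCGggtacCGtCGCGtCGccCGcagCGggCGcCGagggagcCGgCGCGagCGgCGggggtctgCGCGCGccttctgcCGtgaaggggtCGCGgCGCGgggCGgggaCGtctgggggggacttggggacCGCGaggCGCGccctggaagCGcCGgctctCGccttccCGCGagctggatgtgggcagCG

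The Hhip stretch holds 28 CpG sites, that of Gli2 22 and that of Ptch1 41. All 6 windows thus held more CpG sites than the median window, though Smo and Gas1 exceeded only 68.6% of windows. Their observed to expected ratios were 0.504 and 0.587, against a median of 0.384 over all windows. Shh, Gli1 and Boc had no window, and whether CpG content goes with the RNA differences was not tested. The motif GACCACCCA, the core site of Gli proteins, was searched on both strands. It was in 0 of the 6 member windows and in 0.253% of all windows, so these letters are rare in windows of this kind.

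The targeted gene, Dnmt1, was at 65.2 RPKM in the Dnmt1+/+ library against 14.5 in the Dnmt1-/- library, so its change was -2.16. Changes are on the log2(RPKM + 0.1) scale, Dnmt1-/- minus Dnmt1+/+, which makes the changes of weakly expressed genes look smaller. Since each genotype has 1 library, replicate spread is unknown, and no difference carries a replicate check or a p-value. A gene is counted as higher or lower where its change was more than 2-fold, its status was OK and either library reached 1 RPKM. Of the 11244 genes that met the last 2 conditions, 10.9% passed the 2-fold line downwards in Dnmt1-/- and 8.47% passed it upwards, and the median change was -0.14. The table holds no counts, but RPKM multiplied by annotated length piled up at 0.0180 in Dnmt1+/+ and 0.0167 in Dnmt1-/- for genes with 1 annotated transcript, which is what 1 read would be worth if about 55600000 and 60000000 reads had been mapped. Read numbers given below were estimated from these values and the longest annotated transcript, and are approximate.

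Fibroblast RNA was abundant in both libraries, with Vim at 2269 and 1873 RPKM and Col1a1 at 1448 and 898 in Dnmt1+/+ and Dnmt1-/-. Of the 11 mesenchymal markers with at least 1 RPKM, Col1a2, Fn1 and Thy1 were more than 2-fold lower in Dnmt1-/- and Pdgfra more than 2-fold higher, and their summed level was 6143 and 3844 RPKM. Of the 5 leukocyte markers, Csf1r, Cd68 and Cd14 were more than 2-fold higher, with Ptprc and Emr1 listed at 0 in both libraries, and their sum was 2.18 and 12.9 RPKM. The 6 epithelial markers, of which 5 were matched, summed to 7.19 and 1.06 RPKM, with Krt19 at 6.90 and 0.326, while Krt18, at 0.0358 and 0.441, and Krt8, at 0 and 0.216, went the other way. The 3 cartilage markers summed to 14.7 and 5.48, with Col2a1 at 6.40 and 0.0661 and Acan listed at 0 in Dnmt1+/+ and at 0.00395 in Dnmt1-/-. The 4 muscle markers summed to 0.437 and 3.44, with Myf5 at 0.106 and 3.28 but Des at 0.318 and 0.0780. The 5 endothelial markers summed to 0.475 and 0.679, and the 5 neural markers to 66.9 and 139.0. The higher neural sum in Dnmt1-/- came mostly from Nes, at 49.9956 and 125.8 RPKM. Tubb3, at 16.9 and 12.9, went the other way, and Sox2, Sox10 and Gfap were low in both libraries. Xist was at 0.00648 RPKM in Dnmt1+/+ against 37.0 in Dnmt1-/-. The Y-linked Ddx3y was at 13.9 and 0, so the lines differ in more than Dnmt1. The part of these differences in the Hedgehog values was not tested, and in RNA from whole cultures fewer expressing cells and less RNA per cell cannot be told apart.

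In both libraries the ligand Shh was listed at 0, while the receptor, co-receptor, transducer and Gli genes were expressed. Of the 8 members, 5 reached 1 RPKM, namely Smo, Ptch1, Gli3, Gli2 and Boc. Among these 5, Gli2 was more than 2-fold lower in Dnmt1-/- and none was more than 2-fold higher. That is 20.0% lower, against 10.9% of all genes, and 0% higher, against 8.47%, which with 5 genes sets them apart from the background in neither direction. Their median change was -0.41, against -0.14 for all genes. Gli1, Hhip and Shh stayed under 1 RPKM in both libraries.

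**Figure D1:**
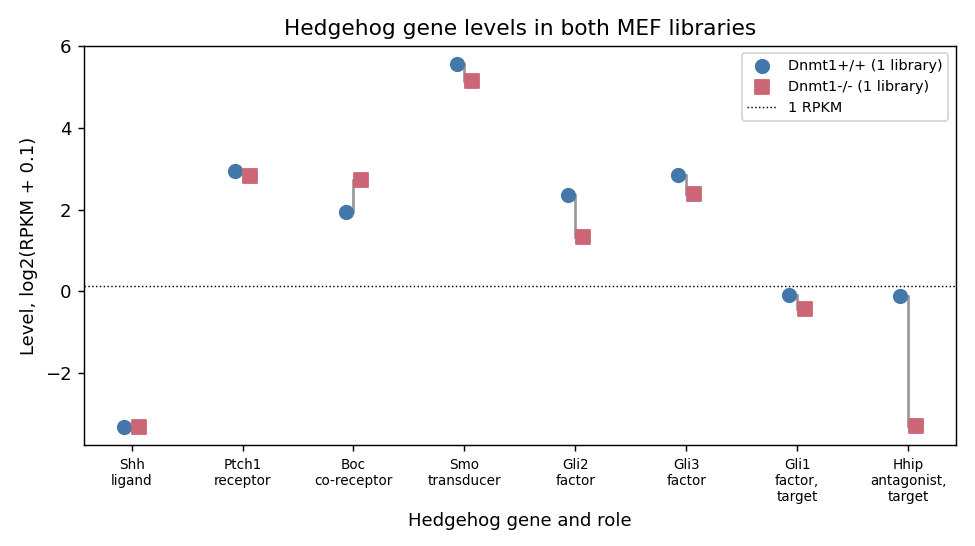
Level of each Hedgehog gene, as log2(RPKM + 0.1), in the Dnmt1+/+ library (circles) and the Dnmt1-/- library (squares), with its role under the name and the level of 1 RPKM as a dotted line. Smo is highest in both libraries and Shh lies at the bottom of the axis in both, and the longest line joins the Hhip values of 0.822 and 0.00232 RPKM.

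Shh encodes Sonic hedgehog, the ligand made by the limb organizer and the notochord. It lies on the minus strand of chromosome 5 (mm9, 28783355 to 28793641), with 3 exons. The Dnmt1+/+ library gave 0 RPKM, and so did the Dnmt1-/- library. In the table its entry spans the same stretch as the long non-coding RNA 9530036O11Rik of the opposite strand, which was listed at 0 in both libraries too. The nearest other genes were Rbm33, at 9.16 RPKM in Dnmt1+/+ against 5.40 in Dnmt1-/-, and Rnf32, at 0.133 and 0.102. Shh was therefore listed at 0 between a moderately and a weakly expressed gene.

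Ptch1 encodes the Hedgehog receptor, which restrains Smo. The gene lies on chromosome 13 (mm9, 63610261 to 63674474, minus strand), and its longest annotated transcript has 23 exons. The Dnmt1+/+ library gave 7.67 RPKM and the Dnmt1-/- library 7.01, from about 1834 and 1809 reads. The change of -0.13 lay at the median of all genes, as 50.9% of the 11244 genes had a lower one. Both values stood near the middle of the expressed genes, above 53.6% and 54.1% of the 14865 entries with status OK and a symbol. The neighbour Fancc, at 3.41 and 3.50 RPKM, and 0610007P08Rik, at 6.23 and 5.17, were within 2-fold as well.

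Boc encodes a cell-surface co-receptor of the immunoglobulin family that binds the ligands along with Ptch1. It lies on chromosome 16 (mm9, 44485158 to 44559010, minus strand), with 19 exons. The level of Boc was 3.73 RPKM in Dnmt1+/+ against 6.53 in Dnmt1-/-, a ratio of 1.75 and a change of 0.79. Boc was the one member with a higher value in Dnmt1-/-, and it stayed within 2-fold. It stood above 40.9% of entries in Dnmt1+/+ and above 52.8% in Dnmt1-/-. Cdon, the closest relative of Boc with the same task, was at 25.04 and 29.6 RPKM, so the level of Boc was 0.149 times that of Cdon in Dnmt1+/+ and 0.221 times in Dnmt1-/-. The neighbour Wdr52, only 2.62 kb away, was listed at 0 and at 0.00833 RPKM, and BC027231, on the other side, at 6.71 and 10.5. Mir3081, whose entry has the same locus as Boc, was listed at 0 in both libraries.

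Smo encodes the membrane protein that carries the signal into the cell, and it was the most abundant member. It lies on chromosome 6 (mm9, 29685694 to 29711365, plus strand), with 12 exons. Smo stood at 47.1 RPKM in Dnmt1+/+ against 35.6 in Dnmt1-/-, from about 9897 and 8060 reads, above 89.3% and 85.6% of entries. The change was -0.41, or -0.26 relative to the median of all genes. The level of the receptor Ptch1 was 0.163 times that of Smo in Dnmt1+/+ and 0.197 times in Dnmt1-/-. On either side Tspan33 stayed near 0, at 0.0738 and 0.0820 RPKM, and Ahcyl2 was at 7.13 and 6.90.

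The 3 Gli genes encode the zinc finger transcription factors at the end of the pathway. Gli3, the main repressor when no ligand is present, lies on chromosome 13 (mm9, 15555068 to 15821859, plus strand), and Gli2, the main activator, on chromosome 1 (mm9, 120730709 to 120950196, minus strand). Gli3 was the highest of them, at 7.10 RPKM in Dnmt1+/+ against 5.13 in Dnmt1-/-, a change of -0.46. Gli2 went from 5.001 RPKM in Dnmt1+/+ to 2.42 in Dnmt1-/-, from about 1844 and 963 reads. Its ratio was 0.484 and its change -1.02, a value under which 10.6% of the 11244 genes lay. The difference between the libraries is larger than the counting error of about 2.33% and 3.22%, which leaves out the spread between cultures. The level of Gli2 relative to Gli3 was 0.705 in Dnmt1+/+ and 0.472 in Dnmt1-/-. Gli2 lay just past the 2-fold line, and relative to the median of all genes its change was -0.88, within 2-fold, as it also was with a pseudocount of 1, at -0.81.

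Gli1, an activator that is switched on by the pathway itself, was low in both libraries, with 0.837 RPKM in Dnmt1+/+ against 0.641 in Dnmt1-/-. Its level was thus 0.118 and 0.125 times that of Gli3. The values came from about 170 and 141 reads, with counting errors of about 7.66% and 8.42%, and the change was -0.34. Hhip encodes a membrane protein that binds and sequesters the ligands and, like Gli1, is induced by the pathway. It lies on chromosome 8 (mm9, 82490014 to 82581905, minus strand). Hhip stood at 0.822 RPKM in Dnmt1+/+ against 0.00232 in Dnmt1-/-, and the second value is worth less than 1 read against about 209 in Dnmt1+/+. The change was -3.17, a size that is set by the pseudocount of 0.1, so no fold is given. Hhip did not reach 1 RPKM and is not among the genes counted as lower. In Dnmt1+/+ it stood beside Gli1, above 26.7% and 26.9% of entries, and in Dnmt1-/- Gli1 remained above 25.2% and Hhip above 6.18%. The targets Ptch1, Gli1 and Hhip were therefore not alike, with 2 of them within 2-fold and 1 close to absent. The neighbours of Hhip lie far off, Anapc10 at 189 kb with 4.06 and 2.37 RPKM and Frem3 at 553 kb with 0 and 0.00469.

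Each Gli gene has an inhibin beta gene beside it, which encodes a subunit of the activins of the TGF-beta family. Inhba lies 282 kb beyond Gli3 and was at 6.62 RPKM in Dnmt1+/+ against 12.7 in Dnmt1-/-, a change of 0.93. Inhbb lies 362 kb beyond Gli2 and was at 2.18 and 0.940 RPKM, more than 2-fold lower like Gli2, with a change of -1.13. Inhbb reached 1 RPKM in Dnmt1+/+ only and would not have been counted without its higher value there. Inhbe lies 7.82 kb beyond Gli1 and was listed at 0 and at 0.228 RPKM. The values of Gli2 and Inhbb were thus both lower in Dnmt1-/-, while those of Gli3 and Inhba went in opposite directions. On the other side of Gli3, AW209491 lies 825 kb away and was at 9.17 RPKM in Dnmt1+/+ against 1.31 in Dnmt1-/-. Its change was -2.72, in the same direction as that of Gli3. On the other side of Gli2, Tcfcp2l1 lies 149 kb away and was low in both libraries, at 0.0110 and 0.0289 RPKM.

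Gli1 lies on chromosome 10 (mm9, 126766945 to 126778645, minus strand). Its 3′ end overlaps 55 exonic bases of Arhgap9, a GTPase activating protein gene of blood cells on the plus strand, and the table gives both the same locus. Arhgap9 was at 0.0271 RPKM in Dnmt1+/+ against 6.29 in Dnmt1-/-, a change of 5.65. The level of Gli1 was not higher beside it. The libraries were strand-specific, but whether strand was used in assigning reads is not stated, so reads in the overlap cannot be placed with certainty. On the far side of Arhgap9, Mars was at 97.1 and 75.8 RPKM.

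**Figure D2:**
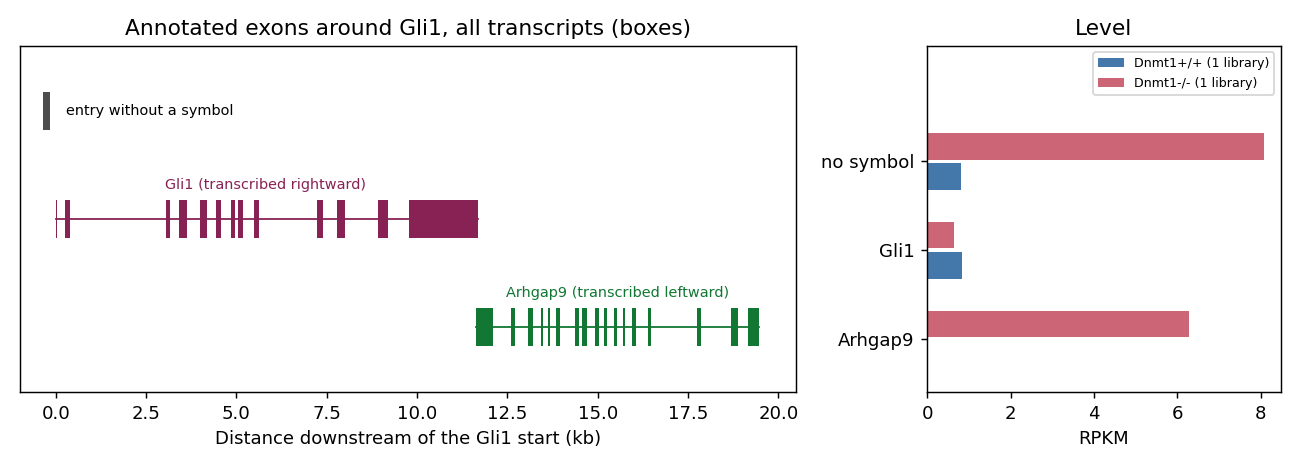
Left, annotated exons of Gli1 and Arhgap9 and an entry without a symbol, by distance downstream of the Gli1 start in kb. Right, RPKM of each in the Dnmt1+/+ and Dnmt1-/- libraries, where Gli1 stays at 0.837 and 0.641, Arhgap9 goes from 0.0271 to 6.29 and the entry without a symbol from 0.803 to 8.07.

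The order of levels in Dnmt1+/+ was Smo, Ptch1, Gli3, Gli2, Boc, Gli1, Hhip and Shh. In Dnmt1-/- it was Smo, Ptch1, Boc, Gli3, Gli2, Gli1, Hhip and Shh, so Boc passed Gli3 and Gli2 and no other pair changed places. Neighbours in this order, such as Ptch1 and Gli3 at 7.67 and 7.10 RPKM in Dnmt1+/+ or Gli1 and Hhip at 0.837 and 0.822, cannot be ranked with 1 library each. By the distance between log2 values of both libraries, the gene most like Ptch1 among the 11243 others was Eif2ak3, that most like Smo was Ndufc2, like Gli3 E2f5, like Gli2 Stx17 and like Boc Mtrf1.

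Of 64 other pathway genes, listed by role, all were matched, with 65 entries. At least 1 RPKM was reached by 56 entries, of which 7 (12.5%) were more than 2-fold lower in Dnmt1-/-, 0 were more than 2-fold higher and 49 were within 2-fold. The number lower was 4 with a pseudocount of 1 or with a minimum of 5 RPKM. Their median change was -0.27, against -0.14 for all genes. The share of lower genes is near the 10.9% of all genes, and the share of higher genes was 8.47% there.

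The other ligands were near 0 as well. Ihh had 0.0416 RPKM in Dnmt1-/- after a listed 0 in Dnmt1+/+, and Dhh was at 0.0206 and 0.00671, both without a test by Cuffdiff. Hhat, which attaches palmitate to the ligands, was at 2.07 and 2.49 RPKM. Of the genes for their release, Scube3, a secreted protein of the Scube family, was at 13.3 RPKM in Dnmt1+/+ against 3.16 in Dnmt1-/-, a change of -2.03. Its relatives Scube1 and Scube2 were under 0.02 RPKM in both libraries. Disp1 was listed at 0 in both, for an entry on an unplaced piece of chromosome 1, so its value says little. With Disp1 left aside, RNA of the listed genes for sending the signal was thus scarce in both libraries, apart from Hhat and Scube3.

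None of the 4 receptor and co-receptor genes with at least 1 RPKM was past 2-fold. Among 23 entries for transducers and regulators of Gli proteins, the change of 22 was within 2-fold, with a median of -0.02. Sufu, which holds Gli proteins in the cytoplasm, was at 11.8 and 7.92 RPKM. Kif7, a kinesin of the ciliary tip, was at 4.38 and 3.12, and Spop, which directs Gli proteins to degradation, at 45.5 and 63.4. Arrb2, a beta-arrestin, was just past the line, with 16.0 and 7.68 RPKM and a change of -1.05. It fell within 2-fold with the median change of all genes subtracted, where pathway genes more than 2-fold lower numbered 6.

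The primary cilium, where Smo and the Gli proteins meet, gave 27 genes, all with at least 1 RPKM. In Dnmt1-/- 25 of the 27 (92.6%) had a negative change, against 59.6% of all genes, and 21 lay under the median of all genes. The list was chosen with earlier results of these data known, so its shares are not those of an independently chosen set. The median of the list was -0.43. More than 2-fold lower were 5 (18.5%, against 10.9% of all genes), and none was more than 2-fold higher. Ift74 and Ift81, which form a tubulin-binding pair within the intraflagellar transport trains, were at 45.8 and 18.7 RPKM in Dnmt1+/+ but at 13.7 and 6.89 in Dnmt1-/-. Dync2h1, the heavy chain of the motor that returns cargo from the tip, was at 2.16 and 0.607 RPKM. Mks1, of the transition zone at the ciliary base, was at 1.48 and 0.0892, and Bbs1, of the BBSome that carries membrane proteins, at 1.17 and 0.284. Dync2h1, Mks1 and Bbs1 reached 1 RPKM in Dnmt1+/+ only and would not have been counted without their higher value there, so the share of 18.5% rests in part on the filter. Ift88, whose loss removes cilia, was at 5.51 and 5.04 RPKM. The remaining 22 genes were within 2-fold.

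**Figure D3:**
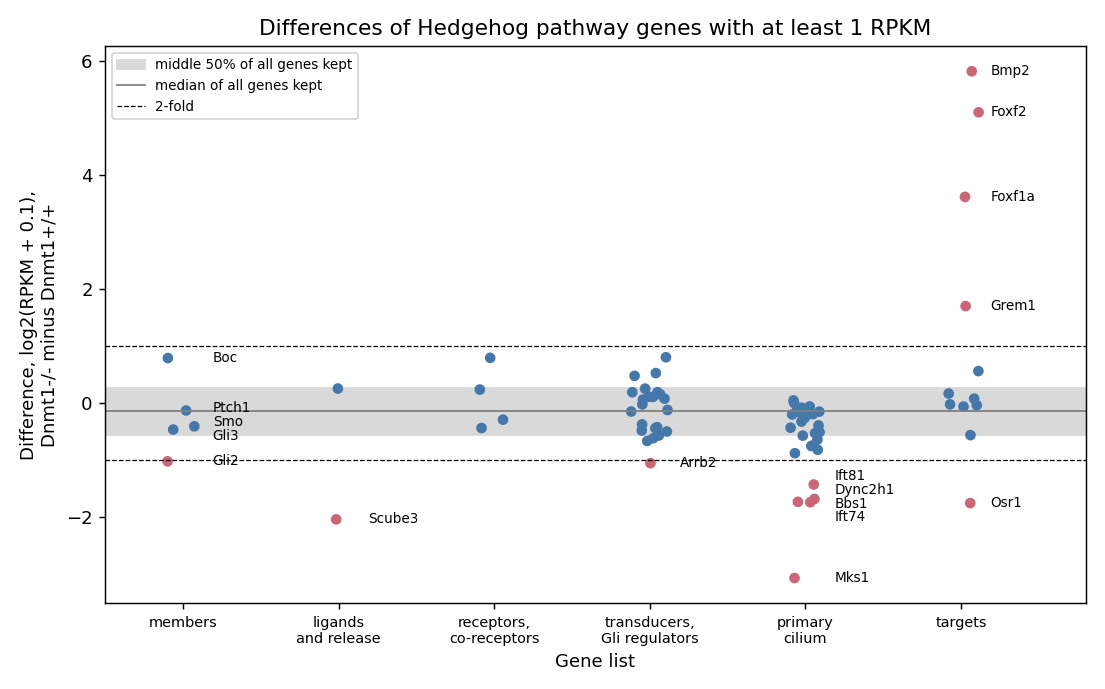
Change from Dnmt1+/+ to Dnmt1-/- on the log2(RPKM + 0.1) scale for each gene that reached 1 RPKM in either library, by list, with genes past 2-fold in red and the middle 50% of all 11244 genes as a grey band. Ciliary genes lie mostly below 0, down to Mks1 at -3.06, and the target genes Bmp2, Foxf2, Foxf1a and Grem1 lie above the upper 2-fold line.

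Of 23 symbols listed as targets outside the members, 22 matched an entry, since Foxf1 stands in the table under its older symbol Foxf1a, and 12 of these reached 1 RPKM. Of the 12, 4 (33.3%, against 8.47% of all genes) were more than 2-fold higher in Dnmt1-/-, 1 was more than 2-fold lower and 7 were within 2-fold. Their median change was 0.12. This list too was chosen with earlier results of these data known. The forkhead genes Foxf1a and Foxf2, Hedgehog targets of gut and lung mesenchyme, were at 0.0463 and 0.0235 RPKM in Dnmt1+/+ but at 1.69 and 4.12 in Dnmt1-/-. Bmp2, a secreted bone morphogenetic protein, was at 0.0164 and 6.44 RPKM. Foxf1a, Foxf2 and Bmp2 reached 1 RPKM in Dnmt1-/- only and would not have been counted without a higher value there. Grem1, a secreted antagonist of BMPs, was at 37.0 and 120.5, a ratio of 3.26. Osr1, a zinc finger gene of the lateral mesoderm, was lower, at 9.74 and 2.83 RPKM, a change of -1.75. The cell cycle targets Ccnd1, at 79.5 and 76.2 RPKM, and Ccnd2, at 92.6 and 90.4, differed little. Of the targets that stayed under 1 RPKM, Mycn was at 0.595 and 0.0799, while Pax9, at 0.0216 and 0.431, went the other way. Unlike the 4 higher genes, none of Ptch1, Gli1 and Hhip had a higher value in Dnmt1-/-. The listed targets answer to other signals too, and the cause of their differences was not tested.

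**Figure D4:**
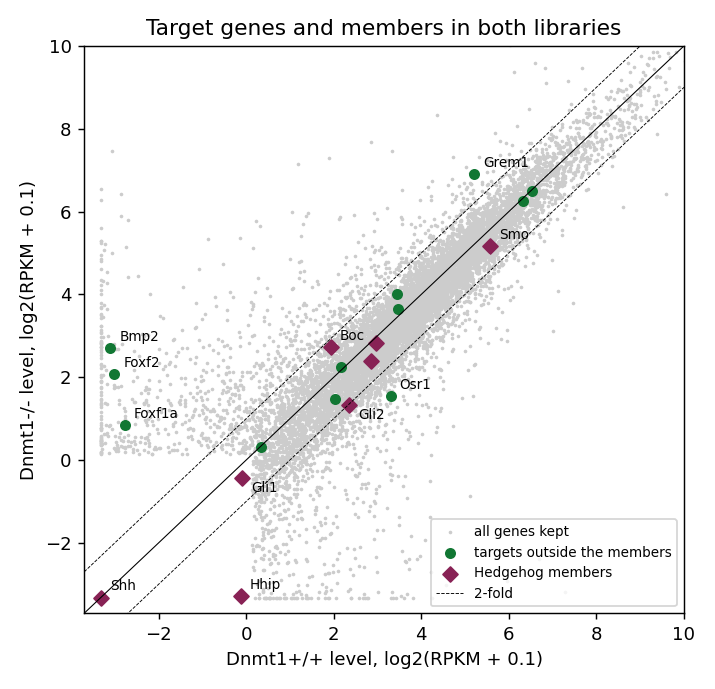
Level in Dnmt1-/- against level in Dnmt1+/+, as log2(RPKM + 0.1), for the Hedgehog members (diamonds), the other targets with at least 1 RPKM (circles) and all genes kept (grey), with the line of equal level and the 2-fold lines. Bmp2, Foxf2 and Foxf1a sit at the left edge, far above the line, Hhip sits at the lower edge, Gli2 sits on the lower 2-fold line, and the other members lie between the 2-fold lines.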

How the data were processed

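The authors mapped 50 bp single-end reads of strand-specific mRNA-seq libraries to the mm9 build using Tophat, built transcripts using Cufflinks, and deposited the RPKM values that Cuffdiff gave for each of the 2 libraries. The annotation was that of mm9, while tool versions and any further scaling of the libraries are not given in the sources used here. Changes were computed as log2(RPKM + 0.1), Dnmt1-/- minus Dnmt1+/+. Genes were kept with status OK, a symbol and at least 1 RPKM in either library. With 1 library per genotype, no test was run. The members and lists were chosen with earlier results of these data known. The genes named are all members, list genes past 2-fold, some pathway genes fixed by name, the nearest named entries beside each member and the gene of most like values. The value of 1 pathway gene fixed by name is not reported here. Other genes named, such as Hhat, Ift88, Mycn and Ccnd1, were chosen after their values were seen. Gene positions are those of NCBIM37 (mm9), 1-based, while promoters are RefSeq sequences of GRCm38.p6. Alternatives were other pseudocounts, filters, centres and thresholds. Python 3.11.15, numpy 2.4.6, pandas 2.3.3 and matplotlib 3.10.9 were used.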

Additional observations from a re-analysis of the deposited data

Results flagged for a closer look

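An assembled entry without a gene symbol, 197 bases long (mm9 chromosome 10, 126778807 to 126779003), lies 162 bases upstream of the annotated start of Gli1. It is outside the comparisons of named genes, and its level was 0.803 RPKM in Dnmt1+/+ and 8.07 in Dnmt1-/-, a change of 3.18 on the log2(RPKM + 0.1) scale. Its strand is not given in the table. Gli1 itself was at 0.837 and 0.641 RPKM. The longest Gli1 transcript has 3665 bases, so the same RPKM stands for far fewer reads in the short entry. No read number was estimated for the entry. The difference has no replicate check and its cause was not tested.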

How the results depend on the processing

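Hedgehog members more than 2-fold lower numbered 1, which was Gli2, but 0 with a pseudocount of 1, with the median change of all genes subtracted or with a 4-fold threshold, and 2 without the filter on low RPKM, where Hhip was added. Members more than 2-fold higher numbered 0, and 1 with a 1.5-fold threshold, which was Boc. The median change of the members kept, -0.41, was -0.40 with a pseudocount of 1 or with the median of 15 ubiquitous genes subtracted, -0.41 with a pseudocount of 0.01 or none, -0.37 without the filter and -0.26 with the median of all genes subtracted. Pathway genes more than 2-fold lower, 7 in all, numbered 4 with a pseudocount of 1 or a minimum of 5 RPKM, 14 with a 1.5-fold threshold and 2 with a 4-fold threshold, and those higher, 0 in all, numbered 2 with a 1.5-fold threshold. Targets more than 2-fold lower, 1 in all, numbered 2 without the filter and 0 with a 4-fold threshold, and those higher, 4 in all, numbered 2 with a minimum of 5 RPKM. Of 68 alternative values, the other 49 were within 1.5 times the reported count or equal to the reported median. No paired analysis was possible because each genotype has 1 library, and for the same reason no replicate could be left out. The RPKM values carry no counts, so the read numbers given are estimates that rest on annotated transcript lengths.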

Other observations

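Entries without a symbol also lie near the starts of Ptch1 and Gli3. That beside Ptch1 (mm9 chromosome 13, 63666916 to 63667579) is 88 bases upstream of the start of its longest transcript, within the span of a further annotated Ptch1 transcript that starts farther out, and its level was 4.79 RPKM in Dnmt1+/+ and 4.92 in Dnmt1-/-, as little different as Ptch1 itself. That beside Gli3 (chromosome 13, 15553643 to 15554485) is 583 bases upstream, and its level was 0.920 RPKM in Dnmt1+/+ and 0.270 in Dnmt1-/-. These entries were chosen after their values were seen, and their strand is not given in the table.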
